A study of Rattus norvegicus with 6 samples.

Results

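Glycolysis, lactate exchange, the pentose phosphate pathway and the citric acid cycle were followed through 36 of their genes in the choroid plexus of the rat lateral ventricle. The genes were picked by name as the enzymes and carriers of these routes, and each was read from its probe set, a group of short probes for 1 transcript on the array, of the highest mean among those annotated to that gene alone. Of the 36 genes, 33 had such a probe set, out of 14217 genes on the arrays, and 32 of them averaged 100 units or more in some stage, out of 10334 genes that did. Those 32 were tested. The plexuses came from Sprague-Dawley rats, with no genetic change or treatment, as E19 fetuses (embryonic day 19), P2 pups (postnatal day 2) and adult males whose age the labels do not give. Every stage had 2 arrays, and an array was given the pooled RNA of several rats: 5 for the developing stages and 3 for the adult according to the methods, while the labels speak of batches of 6 to 10 plexuses. The p-values below therefore measure the spread between pools, not between single rats.

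Glycolysis splits glucose into pyruvate. Lactate dehydrogenase turns pyruvate into lactate and back, and monocarboxylate carriers move lactate and pyruvate across membranes. The pentose phosphate pathway branches off glycolysis to make NADPH and ribose, while pyruvate dehydrogenase feeds the citric acid cycle, whose electrons drive mitochondrial ATP synthesis. The choroid plexus epithelium secretes the cerebrospinal fluid, a work of ion pumps that consumes much ATP, and the mature cells are rich in mitochondria.

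The tissue on the arrays was checked against marker genes. Of 8 measured epithelial markers 7 reached 100 units in a stage (Kcnj13 stayed under it on all arrays), and their summed intensity was 73608 to 75468 units in the E19 pools, 75150.3 to 79159.9 in the P2 pools and 82697 to 88304 in the adult pools. Endothelial markers summed to 9785 to 10224 units in the E19 pools, 8715 to 9458 in the P2 pools and 1855 to 1871 in the adult pools (8 of 8 measured at 100 units or more in a stage), and mural markers to 3761 to 3961 units in the E19 pools, 3844 to 3992 in the P2 pools and 596 to 642 in the adult pools (7 of 8). Fibroblast markers summed to 19029 to 19275 units in the E19 pools, 19658 to 22634 in the P2 pools and 7154 to 7825 in the adult pools (7 of 7), where Col1a1, Col1a2, Col3a1, Dcn and Lum were higher and Pdgfra lower at both stages, and Dpt lower at P2. Macrophage markers summed to 3603 to 3689 units in the E19 pools, 4175 to 4862 in the P2 pools and 1367 to 1396 in the adult pools (8 of 9), neutrophil markers to 689.6 to 726 units in the E19 pools, 182 to 422 in the P2 pools and 41.9 to 114 in the adult pools (2 of 4, with Camp and Cebpe under 100 on all arrays) and cell cycle genes to 11347 to 11768 units in the E19 pools, 10501 to 11118 in the P2 pools and 4083 to 4123 in the adult pools (10 of 10). The summed markers of vessels, fibroblasts, macrophages, neutrophils and cycling cells were thus higher in all developing pools, and those of the epithelium lower. Most single epithelial markers did not pass the test used below. Of 7 tested, 1 was higher and 2 lower than in the adult at E19, and 0 higher and 2 lower at P2. That is 42.9% and 28.6% passing, beside 56.6% and 50.7% of all genes. In whole tissue fewer cells of a type and less RNA per cell cannot be told apart. The part of these shifts in the results below was not tested. The 2 pools of a stage differed by a median of 2.63% over the 32 tested genes for E19, 5.61% for P2 and 3.77% for the adult, most for Pdk4 at E19 (26.3%) and P2 (53.6%) and for Slc16a1 in the adult (37.2%).

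More of these genes were lower than higher in the developing plexus. At E19, 15 of the 32 genes were lower than in the adult and 5 were higher (limma, adjusted p under 0.05), which is 62.5% of them, against 56.6% of all 10334 genes. At P2, 14 were lower and 3 higher than in the adult, or 53.1%, against 50.7% of all genes. Lower genes made up 46.9% of the 32 at E19 and 43.8% at P2, against 25.2% and 21.8% of all genes, and higher ones 15.6% and 9.38%, against 31.4% and 28.8%. The median log2 fold change over the 32 genes was -0.27 at E19 and -0.26 at P2, beside 0.04 and 0.05 over all genes. Both comparisons use the same adult arrays. Fewer genes passed across birth: P2 was higher than E19 for 3 genes and lower for 1, or 12.5% of the 32 against 6.17% of all genes (3.61% higher and 2.56% lower). Centring each array on its own median, which moved the median of all genes to -0.24 at E19 and -0.20 at P2, gave 22 lower and 3 higher genes at E19 and 25 lower and 2 higher at P2, while quantile normalization gave 12 lower and 5 higher at E19 and 12 lower and 4 higher at P2. Without either E19 pool the counts were 3 higher genes at E19 and 9 lower genes at P2, and without any E19 or P2 pool no gene differed between P2 and E19.

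**Figure D1:**
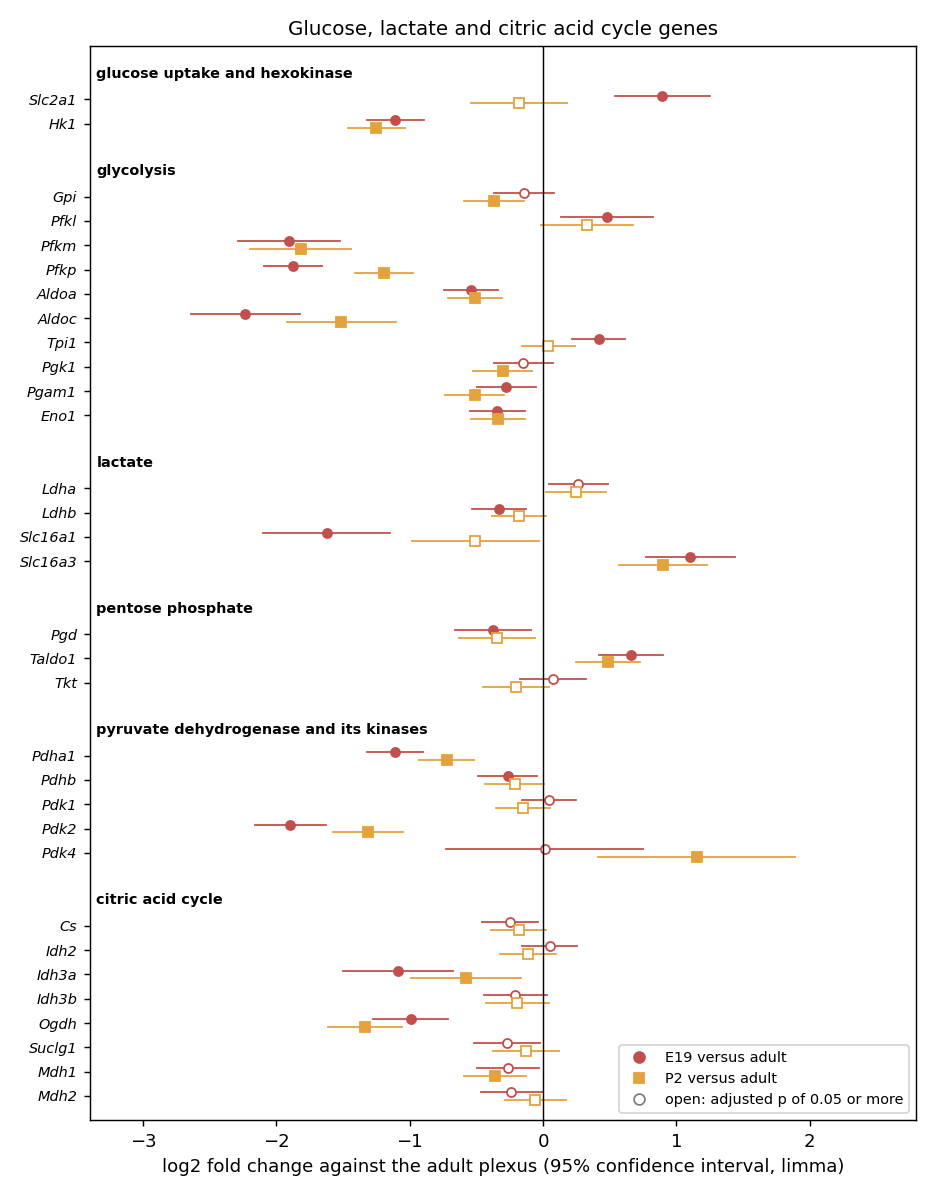
Log2 fold changes of the 32 tested genes at E19 and P2 relative to the adult (x axis, bars: 95% confidence intervals of the limma fit on 2 pools per stage), ordered by role (y axis). Most points lie left of 0, down to -2.23 for Aldoc at E19, and Slc16a3 has the highest value at E19 with 1.10.

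Differences over 2-fold were found among the dimmer probe sets. None of the 10 genes with a mean of at least 5000 units, a limit chosen after the values were seen, differed from the adult by more than 2-fold at either stage, and the largest log2 difference among them at E19 was 0.54 in size. This holds for the brightest probe set of each gene, and a second one of Mdh1, given further on, read more than 2-fold lower at both stages. Of the 22 dimmer genes, 9 differed by more than 2-fold at E19 and 7 at P2. Over all genes of the array the same split gave 7.47% for bright and 23.2% for dimmer genes at E19, and 4.75% and 20.6% at P2.

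Many glycolytic genes are known targets of the hypoxia-inducible factors, so the promoters were searched on both strands for the 2 forms of the core these factors bind, ACGTG and GCGTG. RefSeq promoters (GRCr8, 250 bases before to 50 after the start) were on hand for 34 of the 36 genes, all but Pgk1 and Idh3a. At least 1 core was found in 20 of the 34 (58.8%), against 42.9% of 27457 promoters of the same length. Here and for the other motifs below, the promoters compared were not matched for GC content. The 250 bases before the start are shown for 3 genes that were higher than in the adult at E19 (Slc2a1, Taldo1 and Slc16a3) and 3 that were lower (Pfkp, Aldoc and Pdk2), because the core occurs on both sides. Capitals mark a core on either strand, and CACGTG reads as a core on each strand and counts as 2 overlapping matches. The stretches lie at chr5:138002272-138002521, plus strand (Slc2a1), chr1:205922946-205923195, plus strand (Taldo1), chr10:106712078-106712327, plus strand (Slc16a3), chr17:68639563-68639812, plus strand (Pfkp), chr10:63715294-63715543, plus strand (Aldoc) and chr10:80483913-80484162, minus strand (Pdk2).
Slc2a1: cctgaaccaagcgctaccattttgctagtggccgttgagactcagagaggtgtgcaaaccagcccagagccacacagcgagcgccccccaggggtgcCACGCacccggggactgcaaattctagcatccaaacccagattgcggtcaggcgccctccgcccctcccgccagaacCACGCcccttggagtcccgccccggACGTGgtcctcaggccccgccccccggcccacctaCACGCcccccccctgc
Taldo1: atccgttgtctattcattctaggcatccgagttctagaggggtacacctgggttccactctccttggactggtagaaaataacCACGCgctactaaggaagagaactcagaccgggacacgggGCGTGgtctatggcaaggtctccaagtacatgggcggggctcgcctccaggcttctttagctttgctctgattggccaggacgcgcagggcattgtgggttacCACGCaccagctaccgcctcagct
Slc16a3: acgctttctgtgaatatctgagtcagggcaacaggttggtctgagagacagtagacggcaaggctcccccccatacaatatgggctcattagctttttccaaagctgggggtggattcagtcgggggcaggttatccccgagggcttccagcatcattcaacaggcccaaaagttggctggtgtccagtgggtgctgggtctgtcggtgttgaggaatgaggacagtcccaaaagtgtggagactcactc
Pfkp: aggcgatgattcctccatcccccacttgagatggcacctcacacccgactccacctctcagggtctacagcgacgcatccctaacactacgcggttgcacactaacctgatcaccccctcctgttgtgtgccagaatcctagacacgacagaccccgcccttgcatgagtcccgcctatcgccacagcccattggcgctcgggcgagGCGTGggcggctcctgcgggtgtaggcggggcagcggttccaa
Aldoc: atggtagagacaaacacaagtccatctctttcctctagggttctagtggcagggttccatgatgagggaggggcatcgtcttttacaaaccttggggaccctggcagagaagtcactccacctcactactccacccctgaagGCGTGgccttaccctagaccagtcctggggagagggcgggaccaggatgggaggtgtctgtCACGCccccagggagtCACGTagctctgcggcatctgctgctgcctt
Pdk2: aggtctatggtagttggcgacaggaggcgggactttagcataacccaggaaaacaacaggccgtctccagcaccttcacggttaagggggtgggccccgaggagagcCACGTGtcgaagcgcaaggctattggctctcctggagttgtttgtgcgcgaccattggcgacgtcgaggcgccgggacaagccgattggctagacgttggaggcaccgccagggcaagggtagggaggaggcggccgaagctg

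Slc2a1 held 4 cores before its start, Taldo1 3 and Slc16a3 0, while Pfkp held 1, Aldoc 3 and Pdk2 2. For Pfkp and Pdk2 the start used lies inside the annotated gene span, which opens at chr17:68639749 and, on the minus strand, chr10:80483988. Part of each of their windows is therefore inside the gene, and the Pfkp core lies in that part. Among these examples, chosen to show it, genes higher and lower than in the adult both included promoters with several cores. Cores were not compared over all higher and all lower genes. The GC box GGGCGG was found in 21 of the 34 (61.8%), against 34.9% of all promoters. Elements of regulators of mitochondrial genes were rare: TCAAGGTCA, the element of the oestrogen-related receptors, in 0 of the 34 (0.412% of all promoters), its shorter form AAGGTCA in 1, Tpi1 (4.37%), and the NRF-1 core in 1, Pgam1 (0.932%). A match describes letters in this window and is neither a shown binding site nor a cause.

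Entry of glucose into the cell differed between its carrier and its kinase. Slc2a1, which encodes GLUT1, the glucose carrier of barrier epithelia, brain vessels and erythrocytes, had 3018 and 3242 units in the E19 pools, 1658 and 1327 in the P2 pools, and 1781 and 1591 in the adult pools. Both E19 pools stood above all others, and the P2 and adult pools overlapped. Slc2a1 was 1.86-fold higher at E19 than in the adult (log2 fold change 0.89 ± 0.14 SE, limma adjusted p = 0.00489), while the P2 value of -0.18 did not pass the test (95% interval -0.54 to 0.18, adjusted p = 0.323). The endothelial marker sums given above were high at both E19 and P2. Erythroid markers, of which 5 of 9 measured reached 100 units in a stage and Hbe2, Epb42 and Klf1 stayed under it on all arrays, summed to 24283 to 25516 units in the E19 pools, 18366 to 19674 in the P2 pools and 14551 to 14946 in the adult pools. The part of either cell type in the Slc2a1 signal was not tested.

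Hk1, the hexokinase that phosphorylates glucose in most tissues, ran the other way with 939.7 and 996 units in the E19 pools, 891 and 862 in the P2 pools, and 2046 and 2124 in the adult pools. The 4 developing pools lay far under both adult pools, at log2 fold changes of -1.11 ± 0.08 at E19 and -1.25 ± 0.08 at P2 (limma adjusted p = 0.000544 and 0.00051). A second probe set of Hk1 was under 100 units on all arrays and not tested. It had 63.0 and 50.5 units in the E19 pools, 27.2 and 6.44 in the P2 pools, and 58.2 and 37.8 in the adult pools. Control probe sets for Hk1 were near background too, at 18.2 to 122.7 units. Hk2, the insulin-regulated hexokinase of muscle and fat, was under 100 units on all 6 arrays and was not tested. Gpi, which isomerizes glucose 6-phosphate, was only slightly lower: it had 4835 and 4892 units in the E19 pools, 4139.7 and 4181 in the P2 pools, and 5132 and 5624 in the adult pools, and passed the test at P2 (-0.37, limma adjusted p = 0.0215) but not at E19 (-0.14, adjusted p = 0.221). The P2 call for Gpi was lost when any pool but adult pool 1 was left out.

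The 3 subunits of phosphofructokinase, the committed step of glycolysis, did not move together. Pfkm, the muscle type, had 549 and 644 units in the E19 pools, 562 and 711 in the P2 pools, and 2247 and 2212 in the adult pools. Pfkp, the platelet type that is abundant in brain, had 375 and 369.6 units in the E19 pools, 622 and 575 in the P2 pools, and 1364 and 1371 in the adult pools. Pfkl, the liver type, had 471 and 408 units in the E19 pools, 435 and 359 in the P2 pools, and 323 and 306 in the adult pools. For Pfkm and Pfkp all developing pools lay under both adult pools, and for Pfkl they lay above. Pfkm was 3.75-fold lower than the adult at E19 and 3.53-fold at P2 (limma adjusted p = 0.000576 and 0.000856), and its P2 and E19 pools overlapped. Pfkp was 3.67-fold lower than the adult at E19 and 2.29-fold at P2 (adjusted p = 0.000149 and 0.000598), so that P2 stood between E19 and the adult. The Pfkl difference was small, with a log2 fold change of 0.48 ± 0.14 at E19 (limma adjusted p = 0.0323) that was lost without either E19 or either adult pool and under both other scalings, and of 0.33 at P2, which did not pass (adjusted p = 0.0987).

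**Figure D2:**
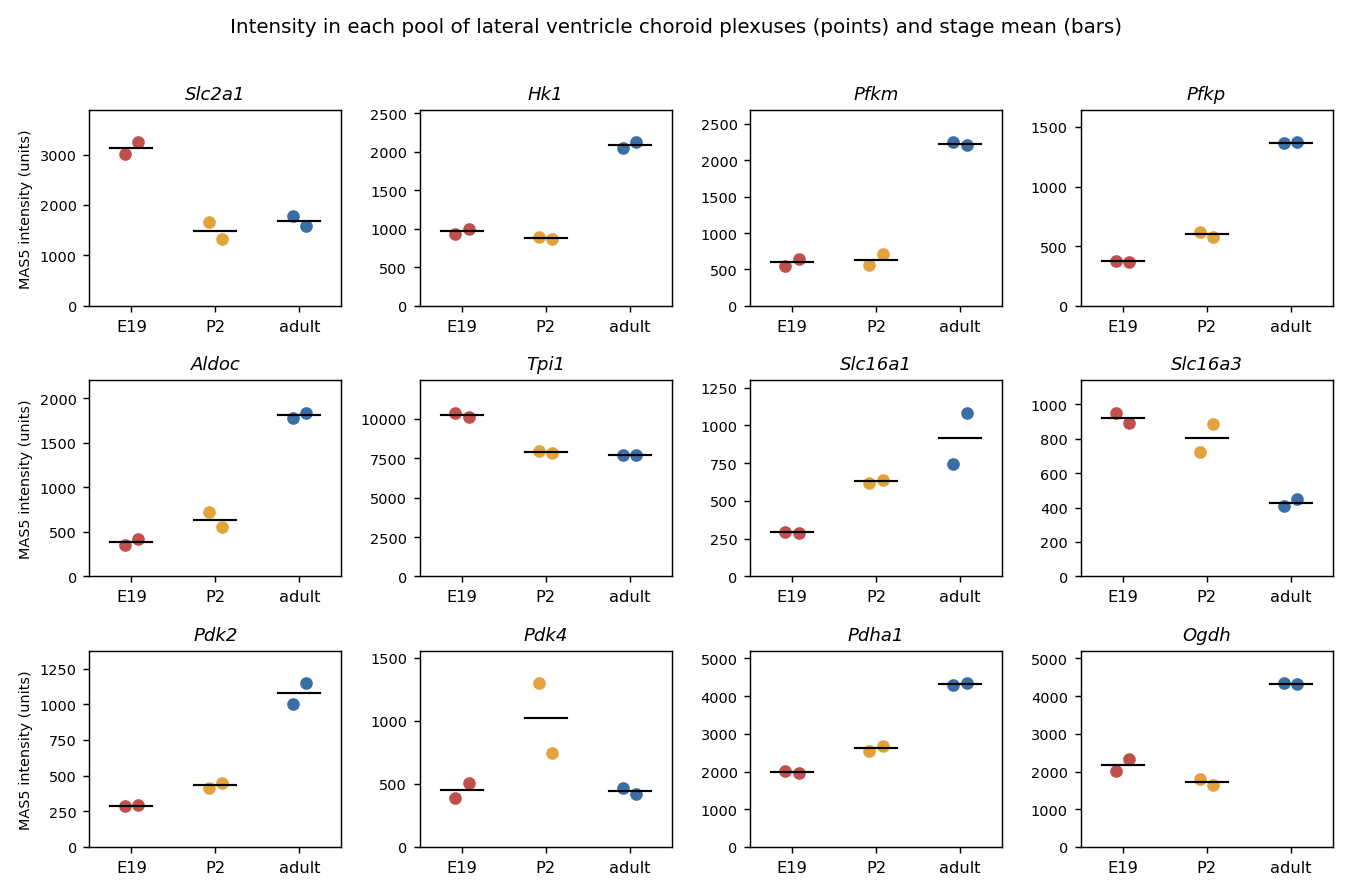
Intensity in units (y axis, from 0) of 12 genes in each pool at E19, P2 and adult (x axis), with a point for each of the 2 pools of a stage and a horizontal bar at their mean. Pfkm, Pfkp, Aldoc, Pdk2, Hk1, Pdha1 and Ogdh are highest in both adult pools, Slc2a1 and Tpi1 in both E19 pools, and Slc16a3 is lowest in both adult pools.

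The aldolases, which split fructose 1,6-bisphosphate, were lower in development to unequal degrees. Aldoa, the ubiquitous and muscle form, had 9517 and 9628 units in the E19 pools, 9859 and 9698 in the P2 pools, and 13720.0 and 14192 in the adult pools. Aldoc, the form of brain and of astrocytes in particular, had 353 and 418 units in the E19 pools, 721 and 555 in the P2 pools, and 1779 and 1836 in the adult pools. In both genes the adult pools stood above all developing ones. Aldoa was 1.46-fold lower than the adult at E19 and 1.43-fold at P2 (limma adjusted p = 0.00389 and 0.0056). Aldoc had the largest difference of the 32 genes at E19, 4.7-fold lower (log2 fold change -2.23 ± 0.16, adjusted p = 0.000453), and was 2.86-fold lower at P2 (adjusted p = 0.00178). Astrocyte and oligodendrocyte markers, 5 of 8 of which reached 100 units in a stage, summed to 1376 to 1464 units in the E19 pools, 1049 to 1523 in the P2 pools and 1879 to 3814 in the adult pools, with the higher adult value in pool 1. That sum joins markers of opposite course: of the 5 tested, Gfap, Aldh1l1, Mbp and Mobp were lower and Slc1a3 was higher at E19, and at P2 all but Gfap passed in the same direction. Aldh1l1, an astrocyte enzyme, had 77.6 and 123 units in the E19 pools, 123 and 59.6 in the P2 pools, and 712 and 629 in the adult pools. Mbp, a myelin protein, had 23.3 and 43.6 units in the E19 pools, 77 and 5.76 in the P2 pools, and 1989 and 656 in the adult pools. The part of glial RNA in the Aldoc difference was not tested.

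From triose phosphate to enolase the tested differences stayed under 1.5-fold. Tpi1, which interconverts the triose phosphates, had 10388 and 10135 units in the E19 pools, 7974 and 7831 in the P2 pools, and 7705 and 7678 in the adult pools. The E19 pools were the highest, at a log2 fold change of 0.42 (limma adjusted p = 0.00911), a call lost without either E19 pool and with median centring, and P2 did not differ detectably from the adult (0.04, adjusted p = 0.703), with a sign that turned under median centring. Pgk1, the first ATP-forming step, had 12324 and 12178 units in the E19 pools, 11401 and 10607 in the P2 pools, and 13206 and 13957 in the adult pools, and passed at P2 (-0.30, adjusted p = 0.038) but not at E19 (-0.15, adjusted p = 0.207). Pgam1, the phosphoglycerate mutase, had 10345 and 10285 units in the E19 pools, 9013 and 8495 in the P2 pools, and 12854 and 12131 in the adult pools. It was lower than in the adult at both stages (-0.28 at E19, limma adjusted p = 0.0436; -0.51 at P2, adjusted p = 0.00715). Eno1, the ubiquitous enolase, had 6864 and 6896 units in the E19 pools, 7023 and 6805 in the P2 pools, and 8874 and 8592 in the adult pools, lower by the same small step at both stages (-0.34 and -0.34, adjusted p = 0.0177 and 0.0212). These small calls rested on all pools: those of Pgk1 and Eno1 at P2 and of Pgam1 at E19 were lost on leaving out any of the 6 arrays, and that of Eno1 at E19 on leaving out either E19 pool or adult pool 1. These calls were also lost with quantile normalization.

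Gapdh and Pkm were described without a test. Gapdh, whose enzyme oxidizes glyceraldehyde 3-phosphate, had only control probe sets of the array, which were left out of the fit, and a probe set shared with Gapdhl10. Its 3′ control probe set gave 13635 to 14393 units over the 6 arrays and its 5′ one 11380 to 12724, with 3′ over 5′ ratios of 1.12 to 1.23, so that a gene of the same pathway stayed nearly level. Pkm, pyruvate kinase, was read by a probe set shared with a pseudogene, Pkm-ps20, with 1350.0 and 1269.6 units in the E19 pools, 1213 and 1176 in the P2 pools, and 2746 and 2883 in the adult pools. All 4 developing pools lay under both adult pools.

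Lactate dehydrogenase is a tetramer of Ldha subunits, which favour lactate formation, and Ldhb subunits, which favour lactate use. Ldha had 6003 and 6176 units in the E19 pools, 6148 and 5894 in the P2 pools, and 4895 and 5262 in the adult pools. Ldhb had 12345 and 12213 units in the E19 pools, 13850.2 and 13384 in the P2 pools, and 15557 and 15329.7 in the adult pools. Both E19 and both P2 pools lay above the adult for Ldha and under it for Ldhb. The Ldha values of 0.26 at E19 and 0.25 at P2 missed the threshold (limma adjusted p = 0.0519 and 0.067), passed with quantile normalization, and turned to -0.01 at both stages with median centring. Ldhb was lower at E19 (-0.33, adjusted p = 0.0194), which was lost without any one E19 or adult pool, and its P2 value of -0.18 did not pass (adjusted p = 0.114).

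The plasma membrane carriers of lactate differed by more than 2-fold at E19, in opposite directions. Slc16a3 encodes MCT4, a low-affinity carrier known for lactate export from glycolytic cells, and had 950.1 and 890.3 units in the E19 pools, 719.7 and 884 in the P2 pools, and 409 and 447 in the adult pools. It was 2.15-fold higher than the adult at E19 and 1.86-fold at P2 (log2 fold changes 1.10 ± 0.13 and 0.90 ± 0.13, limma adjusted p = 0.00196 and 0.00454), with no overlap of developing and adult pools. Slc16a1 encodes MCT1, the widespread carrier for lactate, pyruvate and ketone bodies, and had 295 and 288 units in the E19 pools, 619 and 641 in the P2 pools, and 744 and 1083 in the adult pools. It was 3.08-fold lower at E19 than in the adult (log2 fold change -1.62 ± 0.19, adjusted p = 0.00182). The P2 pools lay just under the adult pools, which themselves differed, and the P2 value of -0.51 did not pass (95% interval -0.99 to -0.03, adjusted p = 0.0732), but passed without adult pool 1.

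Other carriers of monocarboxylates were read from a list of 10 genes, of which 9 had a probe set and 5 were tested. At E19, 3 of the 5 were lower than in the adult and 0 higher. At P2, 1 was lower and 1 higher. Over all genes the shares were 25.2% lower and 31.4% higher at E19, and 21.8% and 28.8% at P2, close to the 20% each way of the carriers at P2. Emb, embigin, a membrane partner of monocarboxylate carriers, had 1227 and 1145 units in the E19 pools, 4757 and 4807 in the P2 pools, and 3388 and 2924 in the adult pools. The order of its stages was E19, adult, P2, with no overlap: the log2 fold change against the adult was -1.41 ± 0.11 at E19 and 0.60 ± 0.11 at P2 (limma adjusted p = 0.00053 and 0.00851). Bsg, basigin, another such partner, was far brighter and passed at neither stage (-0.12 and -0.13, adjusted p = 0.331 and 0.306). Slc16a7, the high-affinity carrier MCT2, was near background with 55.6 and 52.7 units in the E19 pools, 120.1 and 129 in the P2 pools, and 130.2 and 119 in the adult pools, at least 1.24-fold lower at E19 than in the adult (a bound against 100 units, adjusted p = 0.000615) and level with the adult at P2 (0.00, 95% interval -0.25 to 0.25). Mpc1, a subunit of the carrier that brings pyruvate into mitochondria, had 3914 and 4077 units in the E19 pools, 3553 and 4201 in the P2 pools, and 8418 and 8453 in the adult pools. It was 2.11-fold lower than the adult at E19 and 2.18-fold at P2 (adjusted p = 0.00124 and 0.00138). Mpc2, the other subunit of that carrier, passed at neither stage (-0.26 and -0.23, adjusted p = 0.0605 and 0.0873). Slc16a8, the MCT3 of the retinal pigment epithelium and choroid plexus, stayed under 100 units on all arrays and was not tested.

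The pentose phosphate genes did not move as one. Pgd, 6-phosphogluconate dehydrogenase of the oxidative, NADPH-forming arm, had 1219.5 and 1251 units in the E19 pools, 1376 and 1162 in the P2 pools, and 1564 and 1648 in the adult pools. Taldo1, transaldolase of the non-oxidative arm that links pentoses to glycolysis, had 1588 and 1773 units in the E19 pools, 1464 and 1518 in the P2 pools, and 1047 and 1077 in the adult pools. Taldo1 was higher in all 4 developing pools, 1.58-fold higher than the adult at E19 and 1.4-fold at P2 (limma adjusted p = 0.00362 and 0.0111), of which the P2 call was lost without P2 pool 2 and with median centring. Pgd was lower at E19 (-0.38, adjusted p = 0.0367), lost without any one E19 or adult pool, and at P2 its -0.34 did not pass (adjusted p = 0.0526). Tkt, transketolase, had 4440.4 and 4548 units in the E19 pools, 3562 and 3851 in the P2 pools, and 4477 and 4066 in the adult pools. It passed at neither stage, with log2 fold changes of 0.07 at E19 (95% interval -0.17 to 0.32) and -0.20 at P2 (-0.45 to 0.04). The E19 sign turned under median centring, and the P2 value passed as lower with that centring and with a trend on intensity in the spread estimate. Of 6 further genes of the pathway tested, E19 was higher for 1 and lower for 1, and P2 was higher for 2 and lower for 1, or 33.3% and 50% passing, beside 56.6% and 50.7% of all genes. The lower one at both was Rpe, the ribulose phosphate epimerase, with 944 and 939 units in the E19 pools, 1129 and 1170.4 in the P2 pools, and 1967 and 2098 in the adult pools (log2 fold changes -1.11 and -0.82, adjusted p = 0.000535 and 0.00161).

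Pyruvate dehydrogenase joins glycolysis to the citric acid cycle, and its kinases switch it off by phosphorylation. Pdha1, the catalytic α subunit, had 2022 and 1975 units in the E19 pools, 2558 and 2677 in the P2 pools, and 4291 and 4341 in the adult pools. The values stepped upwards over the 3 stages without overlap, 2.16-fold lower than the adult at E19 and 1.65-fold at P2 (log2 fold changes -1.11 ± 0.08 and -0.72 ± 0.08, limma adjusted p = 0.000474 and 0.00211). Pdhb, the β subunit of the same enzyme, had 5960.1 and 5501 units in the E19 pools, 5881 and 5999 in the P2 pools, and 6798 and 6979 in the adult pools. Its E19 difference was -0.27 (adjusted p = 0.0492), a call lost without any one of the 6 arrays and with quantile normalization, and its P2 value of -0.21 did not pass (adjusted p = 0.0955).

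The 3 kinases of the set differed in course. Pdk2, the widely expressed kinase, had 284 and 292 units in the E19 pools, 416 and 449 in the P2 pools, and 1006 and 1147 in the adult pools. Adult pools stood above all others, and Pdk2 was 3.73-fold lower than the adult at E19 and 2.49-fold at P2 (log2 fold changes -1.90 ± 0.10 and -1.31 ± 0.10, limma adjusted p = 0.000228 and 0.000783). Pdk4, the kinase induced by fasting and fatty acids in muscle and heart, had 391 and 509 units in the E19 pools, 1296 and 748 in the P2 pools, and 469 and 418 in the adult pools. It was highest at P2, where the 2 pools were far apart, at 2.22-fold higher than in the adult (log2 fold change 1.15 ± 0.29, adjusted p = 0.025). That call was lost without P2 pool 1 (log2 fold change 0.76) and without either adult pool. At E19 the Pdk4 pools overlapped the adult ones (0.01, 95% interval -0.73 to 0.75). Another probe set of Pdk4 was under 100 units on all arrays and not tested. It was not highest at P2, with 52.6 and 22.4 units in the E19 pools, 56.7 and 55.0 in the P2 pools, and 68.7 and 57.6 in the adult pools. Pdk1, a kinase known as a hypoxia target, did not pass at either stage by its brightest probe set (0.05 and -0.15, adjusted p = 0.655 and 0.169). Of 5 other tested genes of the complex and its regulators 3 were lower at E19 and 3 at P2, and 0 higher, or 60% lower beside 25.2% and 21.8% of all genes. Pdp2, a phosphatase that reactivates the enzyme, had 496 and 493 units in the E19 pools, 296 and 393 in the P2 pools, and 752 and 840.4 in the adult pools (log2 fold changes -0.69 and -1.22, adjusted p = 0.017 and 0.00325), and the E19 call was lost without either E19 pool or adult pool 2. Pdk3, a further kinase, had 1417 and 1403 units in the E19 pools, 1643 and 1693 in the P2 pools, and 2412 and 2328 in the adult pools (-0.75 and -0.51, adjusted p = 0.00146 and 0.006).

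In the citric acid cycle 2 of 8 tested genes were lower at E19 than in the adult, 3 were lower at P2, and 0 were higher at either stage. Lower genes were thus 25% at E19 and 37.5% at P2, beside 25.2% and 21.8% of all genes on the array. These counts depended on the processing. With median centring Cs, Idh3b, Suclg1, Mdh1 and Mdh2 also passed as lower at E19, and Cs, Idh2, Idh3b and Suclg1 at P2. Over all genes that centring raised the lower calls from 2606 to 4172 at E19 and from 2255 to 3763 at P2. A spread estimate with a trend on intensity added the same genes at E19, and Cs and Idh3b at P2. Idh3a, the catalytic subunit of the NAD-dependent isocitrate dehydrogenase, had 948 and 931 units in the E19 pools, 1145 and 1559 in the P2 pools, and 1939 and 2061 in the adult pools. It was 2.13-fold lower at E19 (log2 fold change -1.09 ± 0.16, limma adjusted p = 0.00407), and P2 was 1.5-fold lower (adjusted p = 0.0339, lost on leaving out any array but P2 pool 2). Ogdh, the 2-oxoglutarate dehydrogenase, had 2026 and 2333 units in the E19 pools, 1805 and 1634 in the P2 pools, and 4338 and 4326 in the adult pools. All 4 developing pools were far under both adult pools, with log2 fold changes of -0.99 ± 0.11 at E19 and -1.33 ± 0.11 at P2 (adjusted p = 0.00159 and 0.000856). Idh3b, the regulatory partner of Idh3a, moved little: it had 3005 and 3157 units in the E19 pools, 2986 and 3242 in the P2 pools, and 3669.5 and 3451 in the adult pools and passed at neither stage (-0.21 and -0.19, adjusted p = 0.113 and 0.141).

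The other cycle genes differed less by their brightest probe sets. Cs, citrate synthase, which opens the cycle, had 2936 and 2871 units in the E19 pools, 2956 and 3117 in the P2 pools, and 3454 and 3447 in the adult pools. Its E19 value of -0.25 was at the edge of the threshold (limma adjusted p = 0.0503) and its P2 value was -0.18 (adjusted p = 0.117). Suclg1, a subunit of succinyl-CoA ligase, had log2 fold changes of -0.27 at E19 and -0.13 at P2, and neither passed. Mdh2, the mitochondrial malate dehydrogenase, passed at neither stage (-0.24 and -0.06, the P2 sign turning with quantile normalization). Idh2, the NADP-dependent mitochondrial enzyme, had 11332 and 11819 units in the E19 pools, 10439 and 10239 in the P2 pools, and 11343 and 11022 in the adult pools and lay close to the adult (0.05 at E19, 95% interval -0.16 to 0.26, with a sign that turned under median centring; -0.11 at P2, -0.32 to 0.09). Mdh1, the cytosolic malate dehydrogenase, had 11312 and 11726 units in the E19 pools, 10802 and 10751 in the P2 pools, and 14518 and 13188 in the adult pools by its brightest probe set and was lower at P2 (-0.36, adjusted p = 0.0248), not at E19 (-0.26, adjusted p = 0.056), and the P2 call remained only without adult pool 2. Fh was not analysed here.

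Of the 33 genes, 10 had more than 1 probe set of their own, which made 47 probe sets in all and gave some genes a second reading. For Mdh1 the dimmer probe set gave 1241 and 1240.0 units in the E19 pools, 2118 and 2241 in the P2 pools, and 7254 and 7149 in the adult pools. It put the gene 5.8-fold lower than the adult at E19 and 3.31-fold at P2 (log2 fold changes -2.54 ± 0.08 and -1.72 ± 0.08, limma adjusted p = 7.57e-05 and 0.000219), where the bright one gave -0.26 and -0.36, and it put P2 above E19 (0.81, adjusted p = 0.0208), where the bright one gave -0.10. Pdk1 also read differently: its second probe set had 815 and 779 units in the E19 pools, 629 and 631 in the P2 pools, and 511 and 495 in the adult pools, higher than the adult at E19 (0.66, adjusted p = 0.00223) and at P2 (0.32, adjusted p = 0.0251), where the brightest had 827 and 811 in the E19 pools, 716 and 713 in the P2 pools, and 782 and 805 in the adult pools. The second probe set of Pfkm kept the direction of the first (-1.53 and -1.27, adjusted p = 0.00654 and 0.014). For Pgk1 it was -0.48 at E19 (adjusted p = 0.00631) and -0.54 at P2 (adjusted p = 0.00528), so that Pgk1 passed at both stages by that reading. The dimmer probe set of Pdha1 did not pass (-0.68 and -0.40, adjusted p = 0.0968 and 0.295), and its P2 pools were 262 and 457 units. For Cs, the brighter of 2 further tested probe sets passed as lower at E19 (-0.36, adjusted p = 0.0424) and not at P2 (-0.35, adjusted p = 0.0508), and the dimmer passed at neither (-0.47 and -0.31, adjusted p = 0.0636 and 0.18). Which transcript forms each probe set reads was not analysed here.

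**Figure D3:**
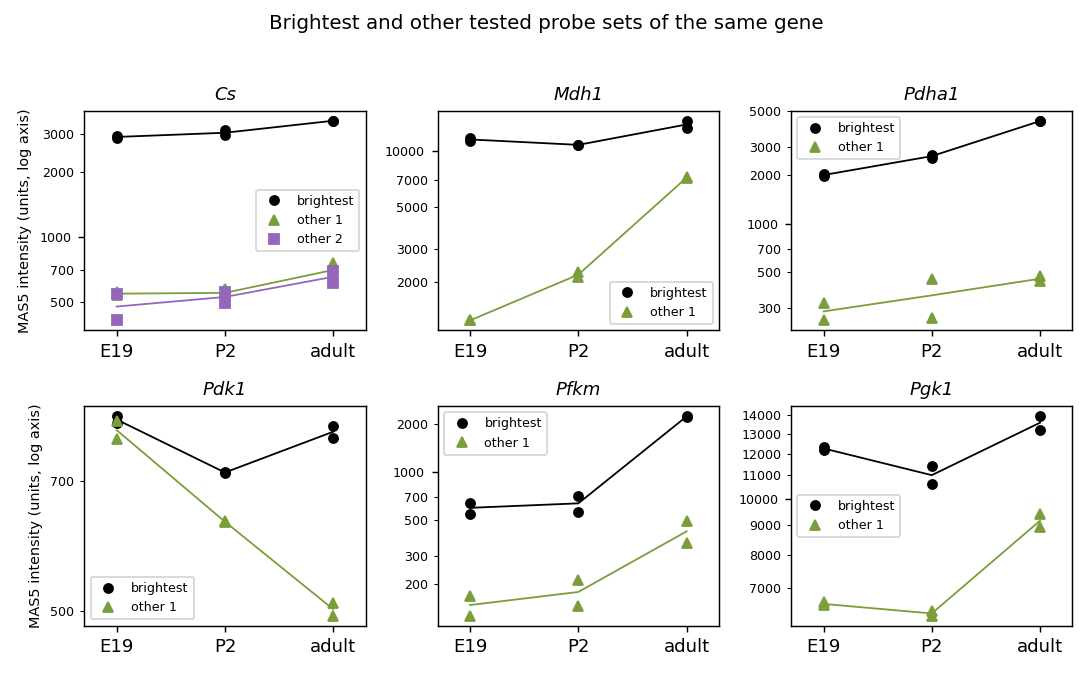
Intensity in units (y axis, log scale) of the brightest and the other tested probe sets of 6 genes in each pool at E19, P2 and adult (x axis), with lines through the means of the 2 pools. The readings run alike for Pfkm, Pgk1 and Cs and apart for Mdh1, whose dimmer probe set is 1241 and 1240.0 units at E19 against 7254 and 7149 in the adult, and for Pdk1.

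Across birth, the 4 genes that passed between P2 and E19 were Slc16a1, Pfkp, Pdk2 and Slc2a1. Slc16a1 was 2.16-fold higher at P2 than at E19 (log2 fold change 1.11 ± 0.19, limma adjusted p = 0.0386). Pfkp was 1.61-fold higher (0.68 ± 0.09, adjusted p = 0.0242) and Pdk2 1.5-fold higher (0.58 ± 0.10, adjusted p = 0.0427), while Slc2a1 was 2.11-fold lower (-1.08 ± 0.14, adjusted p = 0.0253). In each of the 4 the 2 pools of P2 lay apart from the 2 of E19, and for Slc16a1, Pfkp and Pdk2 the P2 pools stood between E19 and the adult. None of these 4 calls remained when any E19 or P2 pool was left out, and that of Pdk2 was also lost with median centring. Aldoc (0.72, adjusted p = 0.0634), Pdha1 (0.39, adjusted p = 0.0557) and Tpi1 (-0.38, adjusted p = 0.0558) fell just short. Among the other carriers Emb and Slc16a7 passed: Emb had 4757 and 4807 units at P2 against 1227 and 1145 at E19 (4.04-fold higher, adjusted p = 0.0135), and Slc16a7 was at least 1.24-fold higher at P2 (adjusted p = 0.0161), and both calls were lost on leaving out any E19 or P2 pool.

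The other genes of these routes were read from lists. Of 14 further citric acid cycle genes tested, 8 were lower at E19 than in the adult and 7 at P2, and 0 were higher, that is 57.1% and 50% lower beside 25.2% and 21.8% of all genes. Sdha, the flavoprotein of succinate dehydrogenase, had 2610.2 and 2751 units in the E19 pools, 3175 and 3127 in the P2 pools, and 5577 and 6086 in the adult pools (log2 fold changes -1.12 and -0.89, limma adjusted p = 0.000625 and 0.00158). Me1, the cytosolic malic enzyme that forms NADPH, had 1062 and 980.5 units in the E19 pools, 1424 and 1309 in the P2 pools, and 2961 and 3377 in the adult pools, the largest difference of that list (-1.63 and -1.21, adjusted p = 0.000394 and 0.00116). Dlst, a partner of Ogdh in its complex, was lower too, at -0.76 and -0.55 (adjusted p = 0.00146 and 0.005). Aco1, the cytosolic aconitase and iron regulator, was lower as well (-0.73 and -0.53, adjusted p = 0.0132 and 0.0399), with the E19 call lost without either E19 pool or adult pool 2 and the P2 call kept only without P2 pool 1.

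Among 9 other glycolytic genes tested, 3 were lower and 0 higher at E19, and 2 were lower and 1 higher at P2. That is 33.3% passing at either stage, fewer than the 56.6% and 50.7% of all genes. Pfkfb2, which makes the activator fructose 2,6-bisphosphate, had 326 and 323 units in the E19 pools, 297 and 302 in the P2 pools, and 923 and 629 in the adult pools (log2 fold changes -1.23 and -1.35, limma adjusted p = 0.00461 and 0.00421). Eno3, the muscle enolase, was higher at P2 (0.99, adjusted p = 0.0266), a call lost on leaving out P2 pool 1, adult pool 2 or either E19 pool. Of 7 other carriers and kinases of sugars with a probe set only 2 were tested. Slc2a13, the proton-coupled myo-inositol carrier, had 2391 and 2076 units in the E19 pools, 1485 and 1658 in the P2 pools, and 261 and 211 in the adult pools, 9.51-fold higher than the adult at E19 and 6.7-fold at P2 (adjusted p = 0.000149 and 0.000277). Slc2a8, an intracellular hexose carrier, was lower (-1.02 and -0.47, adjusted p = 0.00278 and 0.0376), and its P2 call remained only without P2 pool 1. Slc2a3, the glucose carrier of neurons, was not tested.

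**Figure D4:**
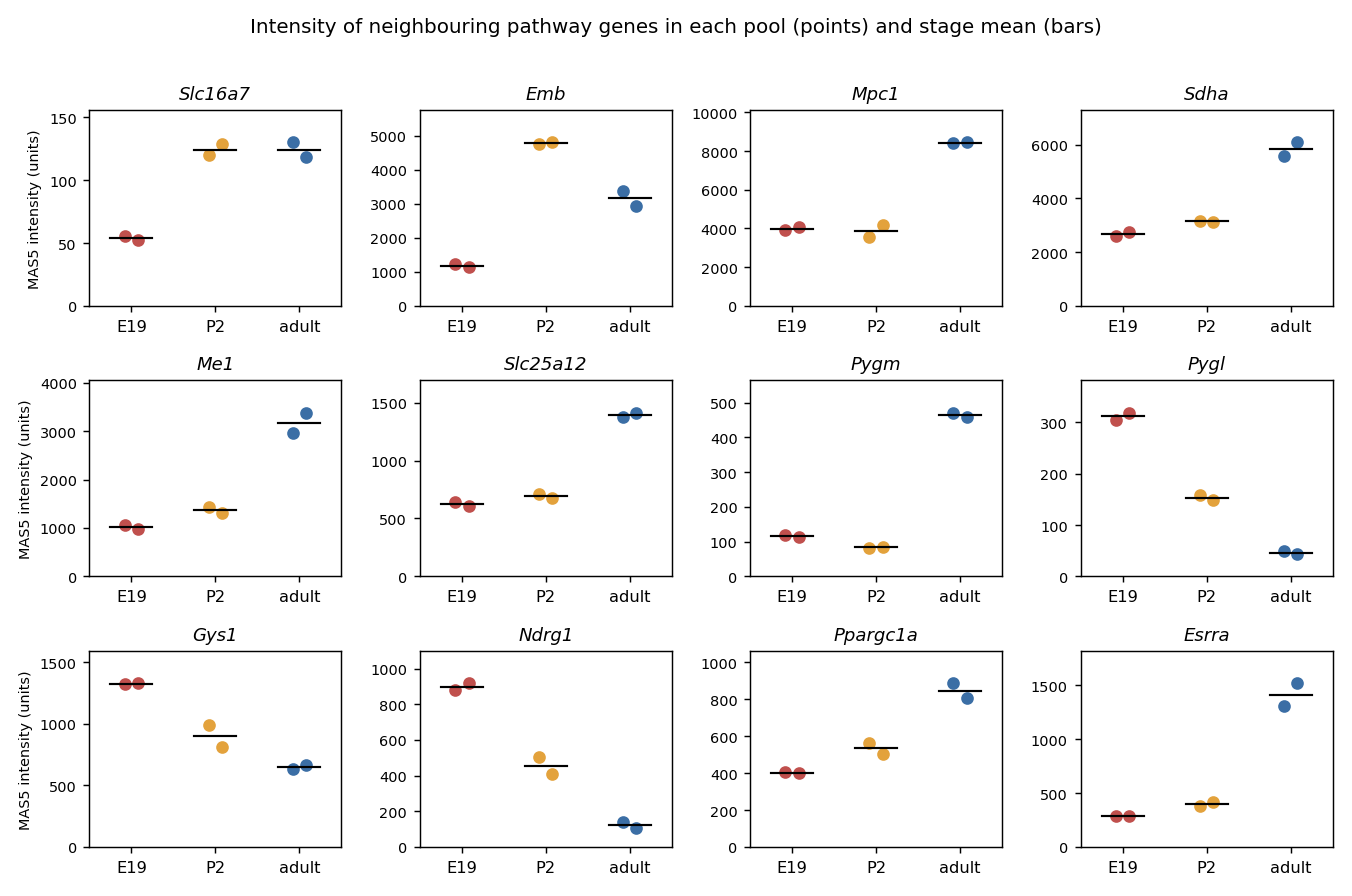
Intensity in units (y axis, from 0) of 12 further genes of fuel metabolism in each pool at E19, P2 and adult (x axis), with a point for each of the 2 pools of a stage and a horizontal bar at their mean. Emb is highest in both P2 pools, Ndrg1, Gys1 and Pygl in both E19 pools, and Sdha, Me1, Mpc1, Slc25a12, Pygm, Esrra and Ppargc1a in both adult pools.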

How the data were processed

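Total RNA was amplified to biotin-labelled cRNA and hybridized to Affymetrix rat arrays, 1 pool per array, 2 arrays per stage. The deposited values are linear signal intensity per probe set, made by the authors with MAS5 in Affymetrix Expression Console, whose version is not given in the sources used here. All 6 columns were used, 0 values were missing, and the number of arrays limits the precision. The 57 control probe sets of 31099 and those with a mean under 100 units in every stage were left out, leaving 17808. A linear model with a mean for each stage was fitted to log2 intensity over all 6 arrays (limma 3.58.1, R 4.3.3), the p-values of a comparison were adjusted after Benjamini and Hochberg over all 17808, and an adjusted p under 0.05 was called. Every p given comes from that fit, which had 3 residual and 2.15 prior degrees of freedom. The fit was also run on simulated data as a check of the code, with independent noise and far fewer changed probe sets than were called here. No result here rests on that run. Fold changes against a stage with both arrays under 100 units are bounds against 100. Genes were named through the array annotation (20832 probe sets with a single gene, 436 with several, 9831 with none) and the RefSeq table of GRCr8, where 68 gene numbers found no match. All 36 genes of the main set could be named. From the other lists, those past the threshold with at least a 1.5-fold change against the adult could be, at most 6 per list, with some usual forms added. Nrf1 and Tfam were added as the higher genes of their list, and Mpc2 and Bsg as counterparts of Mpc1 and Emb. Genes and lists were chosen with earlier results of these data known. Alternatives changed the filter, scaling, low values, arrays in the fit, spread estimate, pairing, probe set and threshold, or left out each array in turn, in which case the lone array of a stage was assumed to vary like the others.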

Additional observations from a re-analysis of the deposited data

How the results depend on the processing

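Across 1650 repeats of single gene comparisons under the alternatives, 1428 stayed on the same side of the threshold, 138 lost the call, 82 gained one and 2 reversed. In the reversed ones the second probe set of Pdk1 put P2 above the adult (log2 fold change 0.32) and that of Mdh1 put P2 above E19 (0.81). The 1428 include 25 that changed sign with neither value past the threshold. At E19 against the adult, higher genes fell to 3 without the filter and with median centring, against 5 as reported, and lower ones stayed between 10 and 22, against 15. At P2 against the adult, 1 gene was higher and 9 lower without the filter, and likewise with an adjusted p under 0.01, against 3 and 14. Median centring gave 25 lower there, and fitting only the 4 arrays compared gave 9. The genes that centring added there were Slc2a1, Ldhb, Slc16a1, Pgd, Tkt, Pdhb, Pdk1, Cs, Idh2, Idh3b and Suclg1. For P2 against E19 (3 higher, 1 lower as reported), no filter and an adjusted p under 0.01 gave 0 and 0, a filter of 200 units and setting values under 100 to 100 gave 5 and 2, adding 50 units before the log gave 6 and 2, and a trend on intensity gave 8 and 7. Leaving out 1 array in turn gave 3 to 5 higher and 10 to 13 lower genes for E19 against the adult, 2 to 3 and 9 to 11 for P2 against the adult, and 0 to 3 and 0 to 1 for P2 against E19. The cause was not tested, and without the filter more probe sets were adjusted for.

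The labels number the pools of each stage 1 and 2. Correlations of the differences between pools 1 and 2 were -0.0571 for E19 and P2, -0.0406 for E19 and the adult and 0.00694 for P2 and the adult. No pairing by number was thus seen in these values, and whether pools of the same number shared a batch was not tested. With the replicate number as a block, E19 was higher than the adult for 5 genes and lower for 12, P2 was higher than the adult for 3 and lower for 13, and P2 differed from E19 for 0.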

Other observations

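Genes around these routes were read from lists as well. In glycogen metabolism and gluconeogenesis E19 was higher than the adult for 2 of 9 tested genes and lower for 5, and P2 was higher for 2 and lower for 4. Over all genes 31.4% were higher and 25.2% lower at E19, and 28.8% and 21.8% at P2. Of the glycogen phosphorylases, 2 forms went opposite ways. Pygl, the liver form, had 305 and 319 units in the E19 pools, 158 and 148 in the P2 pools, and 48.7 and 44.2 in the adult pools, at least 3.12-fold higher than the adult at E19 and at least 1.53-fold at P2, with both adult pools under 100 units (limma adjusted p = 8.81e-05 and 0.0003). Pygm, the muscle form, had 119 and 114 units in the E19 pools, 82.3 and 84.9 in the P2 pools, and 471 and 458 in the adult pools, 3.99-fold lower at E19 and, with both P2 pools under 100 units, at least 4.64-fold lower at P2 (adjusted p = 0.000121 and 0.000101). Gys1, the widespread glycogen synthase, was higher at E19 (1.03, adjusted p = 0.00198), and at P2 (0.46, adjusted p = 0.0285) by a call that remained only without P2 pool 2. G6pc3, the ubiquitous glucose 6-phosphatase, was lower at both stages (-0.94 and -0.66, adjusted p = 0.00132 and 0.0048), and so was Pck2, the mitochondrial PEP carboxykinase (-0.69 and -0.63, adjusted p = 0.00918 and 0.0147), whose P2 call was lost without either P2 pool or adult pool 2. In the malate-aspartate shuttle, which carries NADH electrons into mitochondria, 5 of 7 genes were lower and 1 higher at E19, and 4 lower and 1 higher at P2, which makes 71.4% and 57.1% lower beside 25.2% and 21.8% of all genes. Its 2 aspartate-glutamate carriers differed in direction: Slc25a12, the form of brain and muscle, had 646 and 606 units in the E19 pools, 714 and 674 in the P2 pools, and 1378 and 1412 in the adult pools (-1.16 and -1.01, adjusted p = 0.000525 and 0.000988), and Slc25a13, the liver form, had 1579 and 1554 units in the E19 pools, 1624 and 1451 in the P2 pools, and 929 and 883 in the adult pools (0.79 and 0.76, adjusted p = 0.00211 and 0.00297). Got1, the cytosolic transaminase of the shuttle, was lower (-1.30 and -0.74, adjusted p = 0.000939 and 0.00651).

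Of 14 tested genes known to respond to hypoxia, E19 was higher than the adult for 4 and lower for 3, and P2 was higher for 3 and lower for 3. These shares, 28.6% higher and 21.4% lower at E19 and 21.4% each way at P2, were at or under those of all genes, so nothing is read from the list as a whole. Ndrg1 had 879.8 and 918 units in the E19 pools, 502 and 408 in the P2 pools, and 138 and 108 in the adult pools, 7.35-fold higher than the adult at E19 and 3.71-fold at P2 (limma adjusted p = 0.00025 and 0.00101). Car9, a carbonic anhydrase at the cell surface, had 1241 and 1103 units in the E19 pools, 854 and 668 in the P2 pools, and 321 and 331 in the adult pools (1.84 and 1.21, adjusted p = 0.00059 and 0.00259). Adm, the vasodilator adrenomedullin, was at least 1.94-fold higher than the adult at E19 and at least 4.01-fold at P2, with both adult pools under 100 units (adjusted p = 0.00934 and 0.00183), the E19 call being lost without E19 pool 2. Bnip3, a mitophagy receptor, was lower at both (-0.41 and -0.70, adjusted p = 0.0137 and 0.00309), with the E19 call lost without either E19 pool or adult pool 2. Ddit4, an inhibitor of mTOR signalling, was lower at P2 (-0.84, adjusted p = 0.00236). Hif1a, the oxygen-regulated subunit itself, was slightly lower (-0.30 and -0.42, adjusted p = 0.0305 and 0.0119), with the E19 call lost without any one E19 or adult pool and the P2 call lost without P2 pool 2. Among 11 regulators of mitochondrial biogenesis 2 were lower and 2 higher at E19, and 2 lower and 1 higher at P2, or 36.4% and 27.3% passing, fewer than the 56.6% and 50.7% of all genes. The higher ones were Nrf1 at both stages (0.55 and 0.41, limma adjusted p = 0.0149 and 0.0416) and Tfam at E19 (0.35, adjusted p = 0.0224). Each of these calls was lost on leaving out some single pools. The lower ones were Esrra and Ppargc1a. Esrra, the receptor ERR alpha, had 283 and 291 units in the E19 pools, 381 and 415 in the P2 pools, and 1303 and 1517 in the adult pools, 4.9-fold lower than the adult at E19 and 3.54-fold at P2 (adjusted p = 0.000173 and 0.000389). Ppargc1a, its coactivator PGC-1 alpha, had 403 and 402 units in the E19 pools, 562 and 506 in the P2 pools, and 885 and 806 in the adult pools (-1.07 and -0.66, adjusted p = 0.000957 and 0.00512). All developing pools of both lay under the adult ones.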
